A study of Mus musculus with 18 samples.

Results

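The potassium channel genes described here were all genes of the muscle RNA-seq table whose symbol begins with Kcn followed by a letter. The table held 95 such genes among 23420 genes. Of these, 42 had a mean normalised count of 10 or more over the 9 libraries, which is 44.2% of them against 56.3% of all genes in the table, and their levels and tests are reported below. The other 53 genes were measured but lay under that level, 32 of them with a mean between 1 and 10 and 21 with a mean under 1, and 6 genes had no read in any library.

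The libraries came from the hindlimb skeletal muscle of female C57BL/6J mice, an inbred laboratory strain, aged 2, 20 or 28 months, with 3 mice per age and 1 library per mouse. The labels name no transgene and no treatment, and age was the only difference between the groups that they give. Whole hindlimb muscle was powdered, so that fibres, nerve, vessels and fat contributed RNA together. DNA of the 3 mice of each age was pooled for a methylation capture (MBD-seq), which was also done on T cells sorted from the spleen at the same ages. A normalised count is the number of reads on a gene divided by a size factor of the library, a number that sets libraries of unequal depth on a common scale.

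Potassium channels are membrane proteins that let potassium ions leave or, for some classes, enter the cell, and so set the resting potential and end the action potential. The pore is built from several subunits, and classes differ in what opens it. Voltage-gated channels open on depolarization, inward rectifiers hold the resting potential, tandem-pore-domain channels carry background current, and calcium-activated channels open when calcium rises. Accessory subunits do not form a pore and alter the opening or the traffic of a channel. In skeletal muscle the inward rectifiers and the ATP-sensitive channel are known for the resting conductance and for the response to fatigue, and loss of the nerve is known to change the channels that a fibre makes.

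Library depth differed between mice, and 1 read was worth between 0.545 and 2.23 normalised counts, the total of reads on genes being 20203833 to 71115244. The libraries numbered 3 at each age stood apart, with normalised sums over all genes of 38131628 to 39602607 against 47840578 to 52950481 in the other 6, and counts of calls are therefore also given without them. Levels of 9 of 9 slow fibre markers were higher at 20 months than at 2 months and 9 of 9 at 28 months, and their summed normalised count ranged over 16692 to 134715 in the 2-month libraries, 184855 to 325655 in the 20-month and 228666 to 288403 in the 28-month libraries. None of the 10 genes of the general muscle fibre list was at 0 in any library, while Pvalb among them fell at both older ages and Tnnc2 and Actn3 at 28 months. Of 7 fibroblast markers, 3 fell at 20 months and 2 at 28 months, and of 8 macrophage markers 3 fell at 20 months. Of 8 endothelial markers Vwf rose at 28 months, of 8 tested bone and cartilage markers Col2a1 fell at both ages and Phex at 28 months, and of 4 tested lymphocyte markers 0 were called in any comparison by limma, with 0 at an unadjusted p under 0.05. The part of these cell types in the results was not tested. Fewer cells of a type and less RNA per cell cannot be told apart in such bulk tissue.

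The level of the family was carried by few genes. Counted per kb of transcript, the 5 highest genes made up 73.9% of the summed level of the 42. These were Kcna7 (mean 2590 normalised counts per kb), Kcnj11 (2260), Kcnc4 (1760), Kcnj12 (845) and Kcnj2 (736), followed by Kcnc1 (600) and Kcnma1 (463). The lowest per kb were Kcnc2 (1.70), Kcnt2 (1.96), Kcnq1ot1 (2.04) and Kcnj10 (2.23), of which Kcnq1ot1, a long transcript, had a mean of 170 normalised counts and the others means of 10.5, 16.2 and 12.1. By class, voltage-gated pore genes held 52.2% of the summed level per kb, inward rectifiers 36.7% and calcium- or sodium-activated pore genes 6.90%, whereas tandem-pore-domain genes held 0.868%. The summed level per kb of the 42 genes averaged 11700 ± 734 in 2-month, 10700 ± 730 in 20-month and 10800 ± 527 in 28-month libraries (SD, n = 3), which overlapped (10900 to 12300, 9880 to 11200 and 10200 to 11300). At the threshold, Kcns3 (mean 10.2), Kcnc2 (10.5) and Kcnrg (11.3) lay just inside, and Kcnd3 (9.02), Kcnj15 (8.43) and Kcne3 (8.21) just outside. Of the 42 genes, 5 had a group mean under 10 at some age, and none of these was called in the fit of all 9 libraries.

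**Figure D1:**
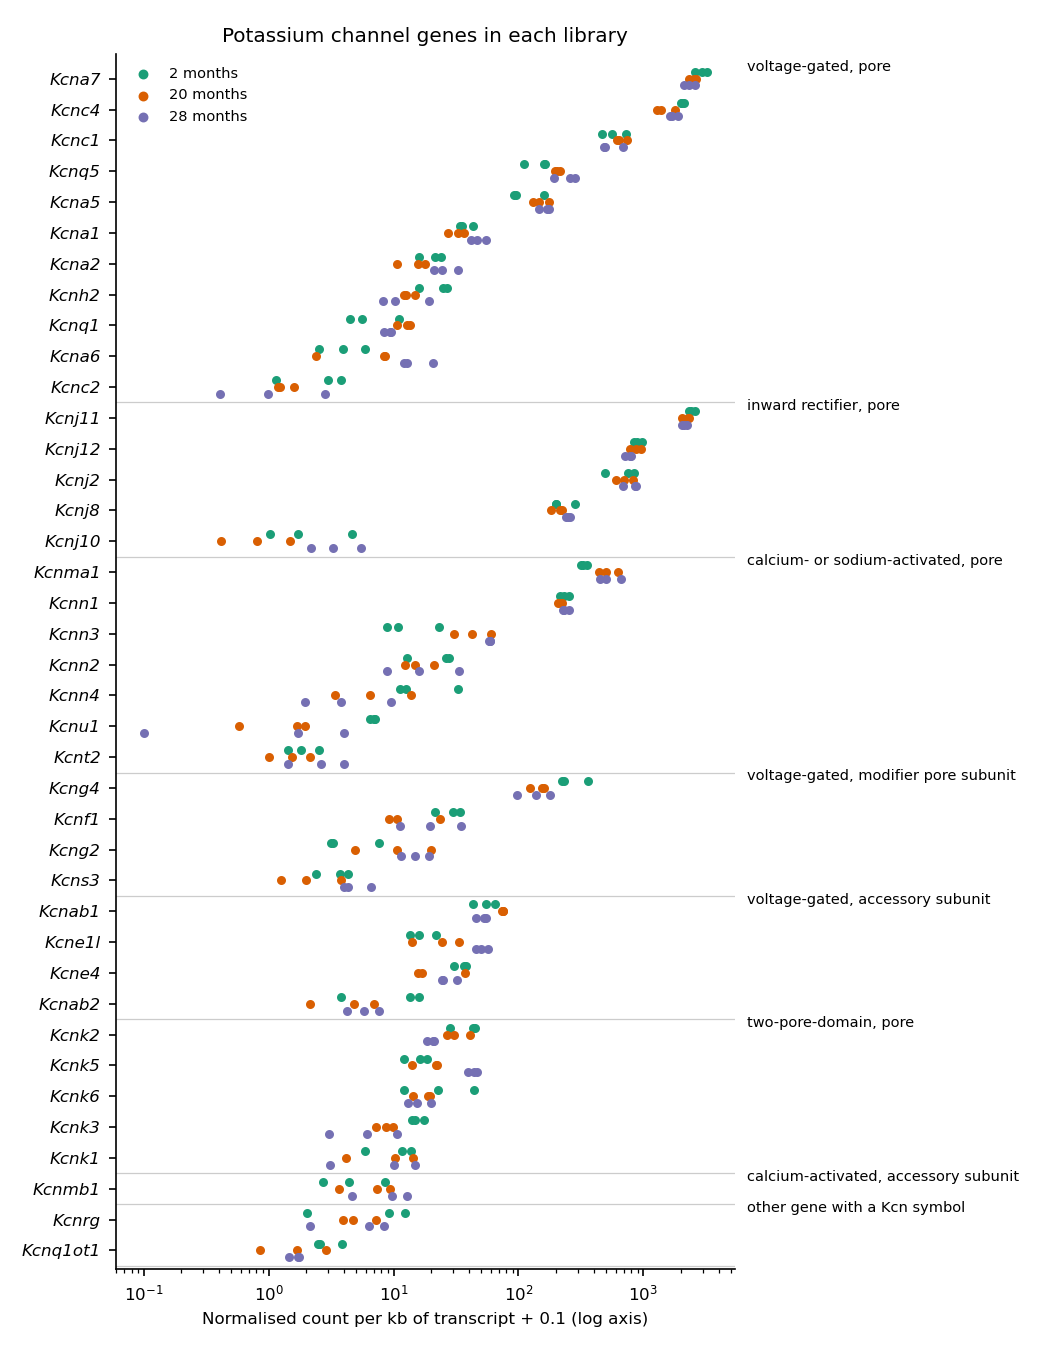
Normalised count per kb of transcript plus 0.1 (log axis) of 39 of the 42 potassium channel genes in each of the 9 libraries. Genes are grouped by class, colours mark 2, 20 and 28 months, and each point is 1 mouse. Kcna7, Kcnj11 and Kcnc4 lie at the top of the scale, and most genes differ far more from each other than between ages.

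Whether potassium channel genes changed with age was tested gene by gene with limma on log2(normalised count + 1), and a gene was called where the p adjusted over all 13178 genes tested was under 0.05. All fold changes below are on that scale, which understates changes of low genes. Between 2 and 20 months, 5 of the 42 genes were called. Kcnn3, Kcnma1 and Kcnq5 rose and Kcnc4 and Kcng4 fell. In the same comparison 9.42% of all genes tested rose and 7.13% fell, against 7.14% and 4.76% of the 42, shares near the background. The median log2 fold change of the 42 genes was -0.21, against -0.02 over all genes tested. Without the libraries numbered 3, 4 genes were called, of which Kcnn3 and Kcnma1 were among the 5, and Kcnq1ot1 (lower) was not. Without the 20-month replicate 1 the count was 2 (Kcnn3, and Kcnf1 lower), and without the 2-month replicate 3 it was 3.

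Between 2 and 28 months, 12 of the 42 genes were called. Those that rose included Kcnn3, Kcna6, Kcne1l, Kcnk5, Kcnq5 and Kcnma1, and those that fell included Kcnk3, Kcng4, Kcnk2 and Kcna7. The background was 7.53% of genes higher and 6.24% lower, against 16.7% and 11.9% of the 42. The median log2 fold change of the 42 genes was -0.07, against -0.01 over all genes tested, and 20 of the 42 were above 0. Kcnn3, Kcnma1, Kcnq5 and Kcng4 were called in both comparisons, which share the 2-month libraries. The count depended on single libraries. It was 4 without the 28-month replicate 1, 6 without the 28-month replicate 3, 6 without the 2-month replicate 1 and 4 without all libraries numbered 3, and the 4 left in the last case included Kcnn3, Kcnk5 and Kcnma1. When all libraries were scaled to 1 common sum, which moved the median of all genes by at most 0.04, 2 genes rose and 0 fell at 20 months and 6 rose and 1 fell at 28 months, so that 100% and 85.7% of the calls were higher, against 60.0% and 58.3% in the deposited scaling.

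Between 20 and 28 months, 0 of the 42 genes were called by limma and 0 by edgeR's quasi-likelihood test, with 10 and 9 genes at an unadjusted p under 0.05. DESeq2 called 2 genes, Kcnk5 and Kcna2, with 9 at an unadjusted p under 0.05, where it called 228 of the 12880 genes to which it gave an adjusted p (1.77%). By limma 0.212% of all genes rose and 0.167% fell in this comparison, and 1396 of the 13178 tested had an unadjusted p under 0.05. By a fold over 2 with an unadjusted p under 0.05, thresholds that the study's methods set on DESeq2 output and that were applied here to limma's values, 4 of the 42 genes passed at 20 against 2 months, 8 at 28 against 2 months and 4 at 28 against 20 months, where 5.17%, 5.14% and 1.31% of all genes passed.

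**Figure D2:**
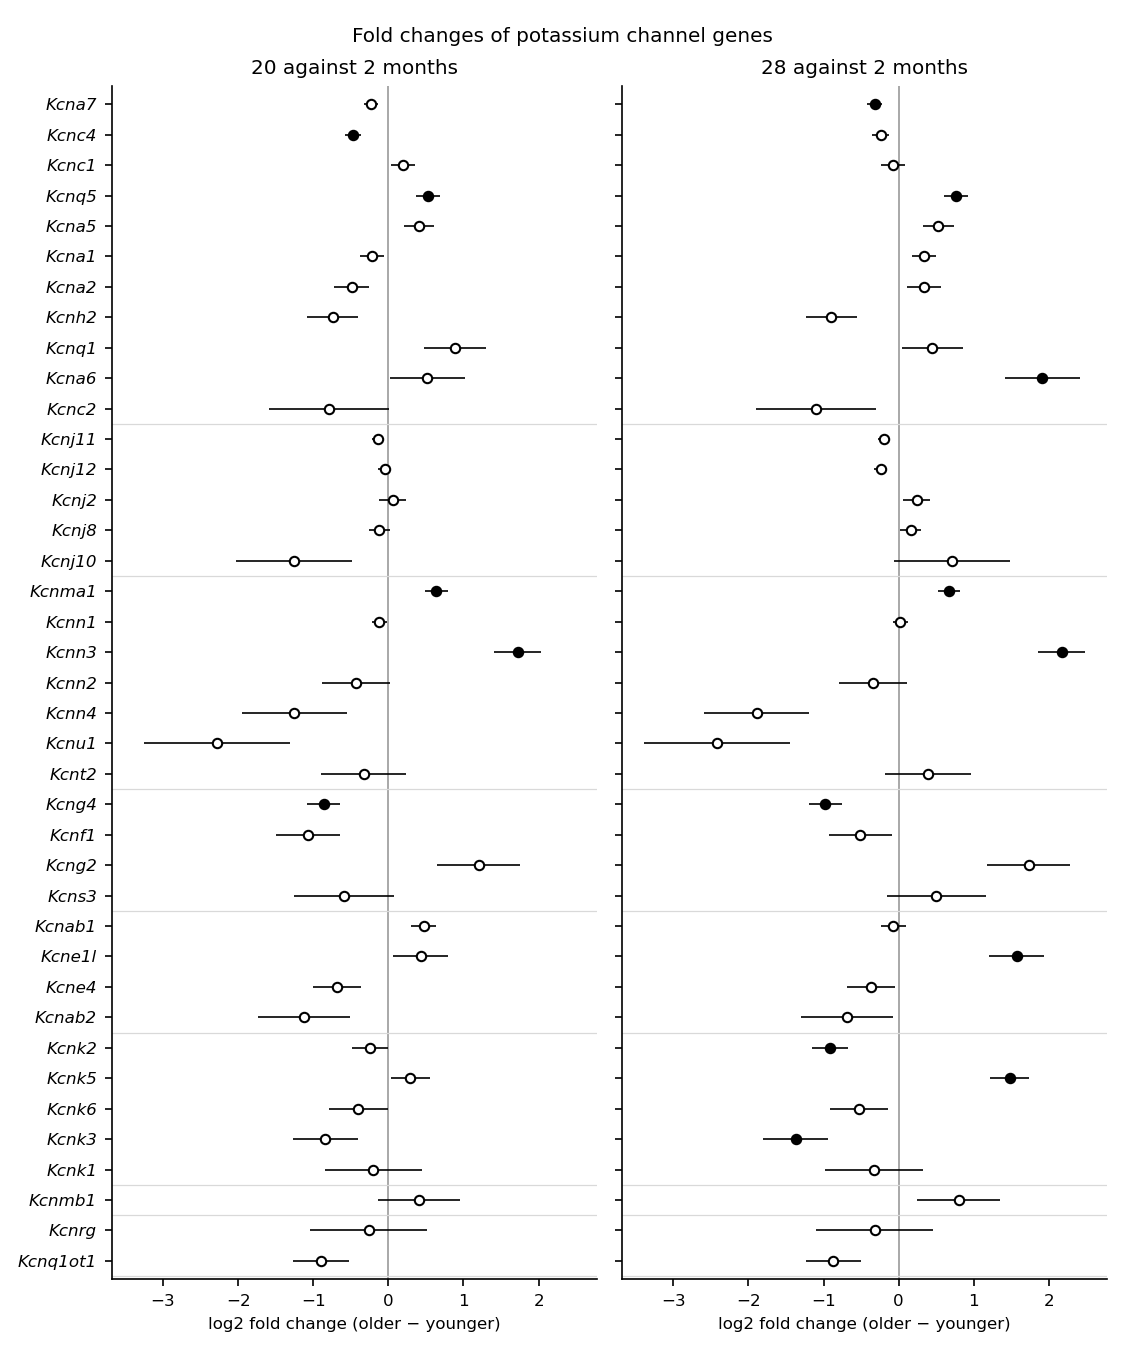
Log2 fold change (points) with its standard error (bars) of 39 genes at 20 against 2 months and 28 against 2 months, in the same order of classes as the plot of levels. Filled points are genes with an adjusted p under 0.05, of which there are 5 on the left and 10 on the right.

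Among the calcium-activated pore genes, Kcnn3 had the largest called change. Kcnn3 (chr3:89520164-89672494, plus strand, 8 exons, GRCm38) encodes a small-conductance calcium-activated channel subunit, known in muscle for its appearance after loss of the nerve. Its normalised count was 66.9, 174 and 81.6 at 2 months, 325, 459 and 232 at 20 months, and 446, 453 and 444 at 28 months. No 2-month library reached the lowest value of either older age, and the 28-month libraries lay close together. The log2 fold change was 1.72 ± 0.31 (SE, adjusted p = 0.00304, limma) at 20 months and 2.17 ± 0.31 (adjusted p = 0.000652) at 28 months, or 3.29-fold and 4.51-fold. Both calls were kept under 21 of 21 alternatives, with log2 fold changes of 1.44 to 2.13 and 1.90 to 2.58. The difference between 20 and 28 months, 0.46 ± 0.31, did not pass the test (adjusted p = 0.653).

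Kcnma1 (chr14:23306612-24004205, minus strand, 28 exons) encodes the pore of the large-conductance channel opened by calcium and voltage. The libraries held 2195, 1947 and 2017 normalised counts at 2 months, 3887, 3093 and 2720 at 20 months, and 4078, 2769 and 3086 at 28 months. All older libraries were above all young ones, and the older ages overlapped. On the log2 scale it differed from 2 months by 0.64 ± 0.15 (SE, adjusted p = 0.0106) at 20 months and 0.67 ± 0.15 (adjusted p = 0.00940) at 28 months. The call at 28 months was kept under 21 of 21 alternatives and that at 20 months under 20, being lost without the 20-month replicate 1.

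Of the other calcium- or sodium-activated pore genes, 5 were tested and none was called by limma in the fit of all 9 libraries. Of the 7 tested in this class, 28.6% were called at 20 months and at 28 months, against 16.6% and 13.8% of all genes tested. Kcnn1 held 836, 705 and 755 normalised counts at 2 months and 736, 829 and 755 at 28 months. Kcnn2 averaged 19.2 normalised counts per kb. Kcnn4, the intermediate-conductance member known from blood cells and vessels, had group means per kb of 18.8, 7.83 and 5.02 at 2, 20 and 28 months, and Kcnu1, known from sperm, of 6.76, 1.31 and 1.84. At 28 against 2 months their log2 fold changes were -1.89 ± 0.70 and -2.42 ± 0.97, with adjusted p of 0.0937 and 0.12, and at 20 against 2 months Kcnu1 had -2.28 ± 0.97 (adjusted p = 0.126), without overlap of the groups. Kcnu1 was called at 20 months when the 6 libraries compared were fitted alone and without the 28-month replicate 3, and both genes were called at 28 months without the 28-month replicate 2. The 2-month replicate 1, in which Kcnn4 stood at 66.9 against 22.9 and 25.3 in the other 2-month libraries, also held a summed count of marrow markers of 5965 against 169 to 425 in the other 8 libraries, with 1 of the 9 marrow genes, Hba-a1, listed at 0 in all. Of 7 marrow markers tested, Mpo fell at both older ages. The part of marrow in the values of Kcnn4 was not tested. The accessory gene Kcnmb1, which joins the large-conductance channel in smooth muscle, averaged 6.91 normalised counts per kb.

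Markers of denervated or immature fibres were set beside these results, since Kcnn3 is known from such fibres. Of the 10 listed genes, 6 were higher at 20 months and 9 at 28 months against 2 months, and 2 of them (Myog and Gadd45a) also at 28 against 20 months. Their summed normalised count lay between 9589 and 10860 in 2-month, 11113 and 12344 in 20-month and 14102 and 17420 in 28-month libraries. Chrng, the fetal acetylcholine receptor subunit, was at 0 in 1 library, of 2 months, and no other gene of the list was at 0 in any. The 2-month library with the highest Kcnn3, replicate 2, was also the 2-month library with the highest sum of slow fibre markers (134715 against 16692 and 33655). The part of either marker list in the change of Kcnn3 was not tested.

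The start regions of 3 genes whose call at 28 months was kept under all alternatives, and of Kcne1l, the called gene with the most methylation capture at its start, are shown as the 250 bases before the RefSeq start (GRCm38.p6), 5′ to 3′ on the gene's strand, with CpG dinucleotides in capitals. They span chr3:89519914-89520163 (plus strand) for Kcnn3, chr14:24004206-24004455 (minus) for Kcnma1, chr14:20181783-20182032 (minus) for Kcnk5 and chrX:142306199-142306448 (minus) for Kcne1l.
Kcnn3: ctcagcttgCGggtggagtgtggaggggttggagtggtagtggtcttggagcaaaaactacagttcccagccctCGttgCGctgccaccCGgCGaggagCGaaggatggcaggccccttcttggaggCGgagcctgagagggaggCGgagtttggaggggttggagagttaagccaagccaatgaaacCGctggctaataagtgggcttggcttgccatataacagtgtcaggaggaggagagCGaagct
Kcnma1: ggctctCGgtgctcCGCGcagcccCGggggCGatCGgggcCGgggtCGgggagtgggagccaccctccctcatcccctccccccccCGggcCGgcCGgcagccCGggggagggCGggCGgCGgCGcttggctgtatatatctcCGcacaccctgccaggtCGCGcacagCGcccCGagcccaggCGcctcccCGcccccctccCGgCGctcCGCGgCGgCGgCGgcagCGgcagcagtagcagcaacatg
Kcnk5: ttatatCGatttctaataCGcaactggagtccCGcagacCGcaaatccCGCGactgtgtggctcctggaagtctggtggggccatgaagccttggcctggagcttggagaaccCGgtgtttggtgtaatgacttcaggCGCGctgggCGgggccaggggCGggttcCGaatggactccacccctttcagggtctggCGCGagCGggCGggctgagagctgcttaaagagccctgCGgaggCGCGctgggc
Kcne1l: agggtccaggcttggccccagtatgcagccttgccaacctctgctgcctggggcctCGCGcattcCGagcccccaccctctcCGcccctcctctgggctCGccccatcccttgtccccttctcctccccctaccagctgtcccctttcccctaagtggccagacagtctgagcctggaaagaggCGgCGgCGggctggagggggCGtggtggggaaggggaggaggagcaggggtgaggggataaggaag
The number of CG, which reads the same on both strands, was 10 for Kcnn3, 31 for Kcnma1, 19 for Kcnk5 and 9 for Kcne1l. Of the 27025 genes with a promoter in the table, 38.2%, 4.93%, 19.6% and 40.7% had at least as many in the same window, with a median of 6. A promoter was listed for 70 of the 95 genes.

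**Figure D3:**
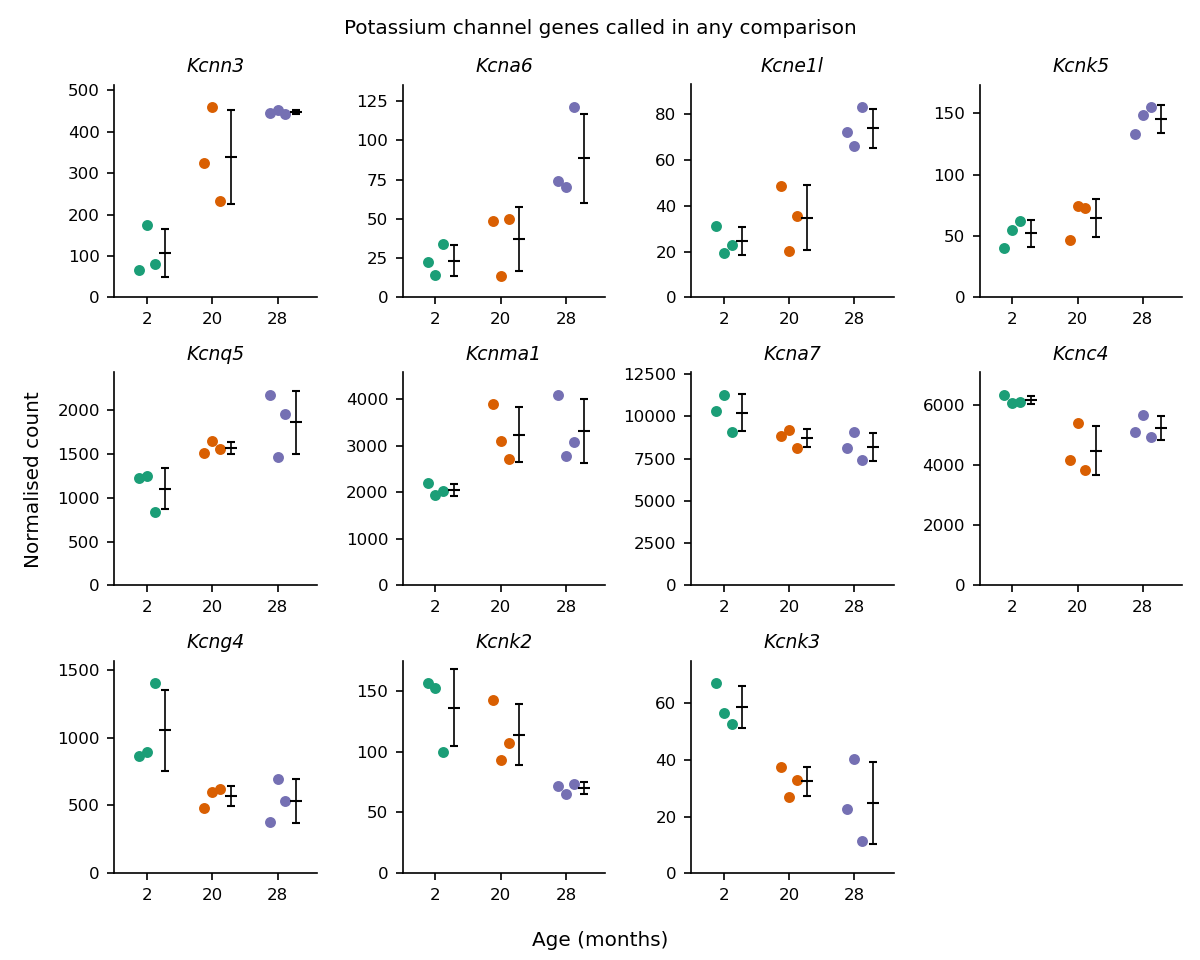
Normalised count of 11 potassium channel genes called in any comparison, by age. Points are single mice and bars give the mean and SD of 3. Kcnk5, Kcne1l and Kcna6 stand higher at 28 months than in all libraries of both other ages, while Kcnma1 and Kcng4 already differ at 20 months.

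Among the voltage-gated pore genes, 14 were tested. At 28 against 2 months 3 of them rose, Kcnq5 and Kcna6 included, and 2 fell, Kcna7 included. At 20 against 2 months Kcnq5 rose and Kcnc4 fell. The calls were 35.7% of the 14 at 28 months and 14.3% at 20 months, against 13.8% and 16.6% of all genes tested. The most abundant of them, Kcna7 (chr7:45405960-45411382, plus strand, 2 exons), is a Shaker-type gene known from muscle. It held 10318, 11248 and 9099 normalised counts at 2 months, 8866, 9177 and 8112 at 20 months, and 8103, 9061 and 7400 at 28 months. The 28-month values lay just under the young ones, 9061 against 9099 at the nearest. The change at 28 months was -0.32 ± 0.0979 on the log2 scale (SE, adjusted p = 0.0474). This call was near the threshold, was kept under 9 of 21 alternatives and was not made by edgeR (adjusted p = 0.0574). With a term for the libraries numbered 3, Kcna7 was also called at 20 against 2 months (log2 fold change -0.23, adjusted p = 0.0307).

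Kcnc4 (chr3:107438301-107458898, minus strand, 4 exons) encodes a fast-inactivating Shaw-type pore of muscle and nerve. Its normalised count was 6330, 6074 and 6096 at 2 months, 4184, 5418 and 3853 at 20 months, and 5097, 5679 and 4934 at 28 months. All 20-month and 28-month libraries were below all young ones. On the log2 scale the difference from 2 months was -0.47 ± 0.11 (SE, adjusted p = 0.0121) at 20 months, and -0.24 ± 0.11 (adjusted p = 0.179) at 28 months, where it was not called. The change at 20 months was -0.38 (adjusted p = 0.0849) without the libraries numbered 3. Of its relatives, Kcnc1 averaged 600 normalised counts per kb and had a log2 fold change of -0.08 ± 0.16 at 28 against 2 months.

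Kcnq5 (chr1:21398399-21962650, minus strand, 13 exons) encodes a slowly opening channel of the family that carries the M current in nerve. It held 1221, 1249 and 835 normalised counts at 2 months, 1504, 1643 and 1554 at 20 months, and 2165, 1465 and 1950 at 28 months. Every older library was above every young one. Its log2 fold change reached 0.53 ± 0.16 (SE, adjusted p = 0.0406) at 20 months and 0.76 ± 0.16 (adjusted p = 0.00841) at 28 months. Without the libraries numbered 3 neither value was called, 0.35 (adjusted p = 0.202) and 0.53 (adjusted p = 0.0977).

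Kcna6 (chr6:126708329-126740674, minus strand, 2 exons) is a Shaker-type gene known from nerve. It stood at 22.3, 14.1 and 33.9 normalised counts at 2 months, 48.6, 13.5 and 49.6 at 20 months, and 74.0, 70.4 and 121 at 28 months. The first ages overlapped and the last stood above both. At 28 months its log2 fold change was 1.91 ± 0.50 (SE, adjusted p = 0.0244), a 3.76-fold rise, and 0.52 ± 0.50 (adjusted p = 0.513) at 20 months. Without the libraries numbered 3 it was 1.96 (adjusted p = 0.109).

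Kcna5, a delayed rectifier, averaged 144 normalised counts per kb and was not called in the fit of all 9 libraries, nor were Kcnh2 (16.0 per kb) and Kcnq1 (9.42). Kcna5 was called higher at both older ages without the 2-month replicate 2, and Kcnh2 lower at 28 months without the 28-month replicate 3. With a term for the libraries numbered 3, Kcnh2 was called lower at 28 against 2 months (log2 fold change -0.90, adjusted p = 0.0495). Kcna1 and Kcna2, which form the juxtaparanodal channel of myelinated axons, were not called by limma either, and Kcna2 is named here after its values were seen. Their mean levels per kb at 2, 20 and 28 months were 37.4, 32.2 and 47.4 for Kcna1 and 20.5, 14.7 and 26.1 for Kcna2. Kcna2 had a log2 fold change of 0.84 ± 0.23 between 20 and 28 months (adjusted p = 0.168, limma), and DESeq2 called it there (log2 fold change 0.82, adjusted p = 0.0429). The 10 Schwann cell markers summed to 6541 to 8278 in 2-month, 4206 to 6239 in 20-month and 5501 to 8276 in 28-month libraries, with none of them at 0 in any library. Among them 2 were lower at 20 months, Pmp22 included, Cdh19 was higher at 28 months, and none of the 10 was called between 20 and 28 months by limma, 4 having an unadjusted p under 0.05. The part of nerve tissue in the values of the Kcna genes was not tested.

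The silent modifier subunits form no channel alone and join other voltage-gated pores. Of 4 tested, Kcng4 (chr8:119623854-119635680, minus strand, 4 exons) was the most abundant, at 185 normalised counts per kb. Its normalised count was 865, 892 and 1399 at 2 months, 482, 599 and 624 at 20 months, and 376, 696 and 532 at 28 months. The young libraries were above all older ones, and the highest of them was replicate 3. Log2 fold changes were -0.86 ± 0.22 (SE, adjusted p = 0.0195) at 20 months and -0.98 ± 0.22 (adjusted p = 0.0113) at 28 months. Without the libraries numbered 3 these were -0.71 and -0.78, with adjusted p of 0.102 and 0.106. Kcng2 lay just outside the threshold at 28 months, with a log2 fold change of 1.73 ± 0.55 (adjusted p = 0.0535, limma, 0.0488 with a term for the libraries numbered 3 and 0.0223 by DESeq2) and group means per kb of 4.59, 11.8 and 15.1. Kcnf1 and Kcns3 averaged 21.5 and 3.49 normalised counts per kb.

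Of 4 accessory genes of voltage-gated channels, Kcne1l was called, at 28 against 2 months, where 13.8% of all genes tested were called. Kcne1l (chrX:142304753-142306198, minus strand, 1 exon), an older symbol of Kcne5, encodes a small membrane protein that dampens Kcnq-type channels. It stood at 31.2, 19.4 and 23.1 normalised counts at 2 months, 48.6, 20.2 and 35.4 at 20 months, and 72.1, 66.3 and 83.0 at 28 months. The 28-month libraries were above all others. The log2 fold change was 0.43 ± 0.37 (SE, adjusted p = 0.467) at 20 months and 1.57 ± 0.37 (adjusted p = 0.0148) at 28 months, a 2.97-fold rise. Without the libraries numbered 3 the latter was 1.45 (adjusted p = 0.153). Kcnab1, a cytoplasmic beta subunit, averaged 59.9 normalised counts per kb, with 54.3 at 2 months, 74.2 at 20 months and 51.1 at 28 months. Its log2 fold change at 20 months was 0.47 ± 0.17 (adjusted p = 0.0765), and it was called there without the 2-month replicate 1. Kcne4 and Kcnab2 averaged 28.4 and 7.14, and Kcne4 was called lower at 20 months without the 20-month replicate 3.

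None of the 5 inward rectifier genes tested was called by limma in any comparison with age as the only term. At 20 against 2, 28 against 2 and 28 against 20 months, 16.6%, 13.8% and 0.379% of all genes tested were called. An unadjusted p under 0.05 was reached by 0, 2 and 2 of the 5, against 4153, 3710 and 1396 of 13178 genes. Kcnj11 (chr7:46097123-46100237, minus strand, 1 exon) is the pore of the ATP-sensitive channel. It held 8133, 7454 and 7205 normalised counts at 2 months, 7183, 7137 and 6359 at 20 months, and 6976, 6378 and 6617 at 28 months. Each older library was below each young one, by little, and the log2 fold change at 28 months was -0.19 ± 0.0791 (SE, adjusted p = 0.136).

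Kcnj12 and Kcnj2 encode the strong inward rectifiers of the muscle membrane. Kcnj12 (chr11:61065804-61073267, plus strand, 3 exons) held 4449, 4083 and 3891 normalised counts at 2 months, 4437, 4019 and 3606 at 20 months, and 3634, 3606 and 3254 at 28 months. Kcnj2 (chr11:111066164-111076825, plus strand, 2 exons) held 4077, 4575 and 2670 at 2 months, 4500, 3840 and 3281 at 20 months, and 4752, 4672 and 3728 at 28 months. The lowest Kcnj2 value at each age was in replicate 3, and the ages overlapped. At 28 against 2 months the log2 fold changes were -0.24 ± 0.0909 (SE, adjusted p = 0.0981) for Kcnj12 and 0.24 ± 0.18 (adjusted p = 0.399) for Kcnj2. The lowest Kcnj12 value at each age was in replicate 3 too, and with a term for the libraries numbered 3 in the fit Kcnj12 was called (adjusted p = 0.0255). Kcnj8, known from vessel walls, averaged 228 normalised counts per kb. The 8 smooth muscle and pericyte markers summed to 16104 to 22446 at 2 months and 18405 to 19927 at 28 months, with none called at 28 against 2 months and 1 (Pdgfrb) lower at 20 against 2 months.

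Of 5 tandem-pore-domain genes tested, 3 were called at 28 against 2 months and 0 at 20 against 2 months, where 13.8% and 16.6% of all genes were called in either direction. Kcnk5 (chr14:20140058-20181782, minus strand, 5 exons) encodes an alkaline-activated background channel. Its normalised count was 40.1, 54.6 and 62.1 at 2 months, 46.7, 74.2 and 73.0 at 20 months, and 133, 149 and 155 at 28 months. The first ages overlapped, and the lowest 28-month library was well above both. The log2 fold change was 0.29 ± 0.26 (SE, adjusted p = 0.479) at 20 months and 1.48 ± 0.26 (adjusted p = 0.00291) at 28 months, a 2.79-fold rise kept under 21 of 21 alternatives. The step from 20 to 28 months was 1.19 ± 0.26 (adjusted p = 0.0923, limma), and 1.15 (adjusted p = 0.00569) by DESeq2. With the replicate number as a block, limma called this step too (adjusted p = 0.0393). The part of denervated or immature fibres, whose markers Myog and Gadd45a rose between 20 and 28 months, in the change of Kcnk5 was not tested.

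Kcnk2 (chr1:189207930-189343707, minus strand, 7 exons), a background channel opened by stretch, held 156, 152 and 99.6 normalised counts at 2 months, 142, 92.8 and 107 at 20 months, and 72.1, 64.9 and 73.6 at 28 months. The 28-month libraries were below all others. The log2 fold change at 28 months was -0.92 ± 0.24 (SE, adjusted p = 0.0245), and -1.16 (adjusted p = 0.0518) without the libraries numbered 3. Kcnk3 (chr5:30588170-30625270, plus strand, 2 exons), an acid-sensitive background channel, held 66.9, 56.4 and 52.7 at 2 months, 37.4, 27.0 and 32.7 at 20 months, and 22.8, 40.1 and 11.3 at 28 months.

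The young libraries had the highest Kcnk3 values. The log2 fold change at 28 months was -1.37 ± 0.43 (SE, adjusted p = 0.0497). This call lay at the threshold, rested on as few as 6 reads in a library, was kept under 5 of 20 alternatives and was not made by edgeR (adjusted p = 0.0866). The 8 adipocyte markers, a tissue that also makes Kcnk3, summed to 7553 to 11474 at 2 months, 4986 to 5642 at 20 months and 4884 to 7128 at 28 months, with none at 0 in any library, and 5 and 2 of them were lower at 20 and 28 months. Most of the sum was Fabp4, with group means of 6010, 4580 and 4670, which was not called (adjusted p = 0.0767 and 0.0951, limma). Lep and Pparg had higher means at 20 months than at 2 months and were not called. The part of adipocytes in the fall of Kcnk3 was not tested. In the annotation, 9.82% of the exonic bases of Kcnk2 and 6.01% of those of Kcnk3 were shared with a gene on the other strand. Kcnk6 and Kcnk1 averaged 19.9 and 9.70 normalised counts per kb.

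The remaining genes with a Kcn symbol encode no channel. Kcnq1ot1, the long antisense RNA of the imprinted Kcnq1 locus, averaged 2.04 normalised counts per kb and had a log2 fold change of -0.90 ± 0.37 (adjusted p = 0.109) at 20 months, and of -1.47 (adjusted p = 0.0379) without the libraries numbered 3. At 28 months it was -0.87 ± 0.37 (adjusted p = 0.139), without overlap of the groups. Kcnq1ot1 was called at 20 months also without the 20-month replicate 3, and at 28 months when the 6 libraries compared were fitted alone and without the 20-month replicate 2. It overlaps Kcnq1 on the other strand, and since the strand setting of the counting is not given in the sources used here, reads of the overlap cannot be assigned. Kcnrg, a cytoplasmic regulator, averaged 6.15.

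Genes that work with the channels were counted from a list of 34 partner subunits and other potassium transport genes, of which 31 were tested. At 20 against 2 months 7 rose and 5 fell, and at 28 against 2 months 5 rose and 4 fell, with median log2 fold changes of 0.15 and 0.11. These are 38.7% and 29.0% of the 31, against 16.6% and 13.8% of all genes tested, whose medians were -0.02 and -0.01. Several are partners of the genes above. Lrrc38 and Lrrc55, auxiliary subunits of the large-conductance channel, fell at 20 months by 1.14 and 1.94 on the log2 scale (adjusted p = 5.52e-06 and 0.0407), and Lrrc38 also at 28 months by 0.96 (adjusted p = 9.62e-06). Lrrc52, of the same family, rose by 4.28 ± 0.71 and 4.01 ± 0.71 on the log2 scale, from 2.23, 14.1 and 52.0 normalised counts at 2 months to 169 to 368 at 20 months and 191 to 245 at 28 months. Amigo1, a partner of voltage-gated pores, had log2 fold changes of -0.47 at both ages (adjusted p = 0.0137 and 0.0144). Abcc8 and Abcc9, the regulatory subunits that join Kcnj11, were not called (adjusted p of 0.053 and 0.179 at 20 months and 0.115 and 0.328 at 28 months). Abcc8 had 187, 89.9 and 194 normalised counts at 2 months and 275, 302 and 248 at 20 months, without overlap, and a log2 fold change of 0.88 ± 0.29 between them.

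Among the transporters of the list, Slc12a4, a potassium and chloride cotransporter, rose by 0.80 and 0.94, and Slc12a2 by 0.27 and 0.26. Fxyd1, a regulator of sodium and potassium transport, had log2 fold changes of -0.42 and -0.35 (adjusted p = 0.0164 and 0.0409). Hcn4, a pacemaker channel, rose by 0.99 and 1.00 (adjusted p = 0.0444 and 0.0484). Tmem38b and Dlg1 rose at 20 months, by 0.31 and 0.27, and Atp1b2 fell by 0.61 on the log2 scale at 28 months.

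DNA methylation at the gene starts was read from MBD-seq, in which a methyl-CpG-binding protein captures methylated fragments. The values are normalised counts in the 500-bp bin that holds the start of the longest curated RefSeq transcript. Each age and tissue was 1 pool of DNA from 3 mice, so the values have no replicate and no test. A count of 0 allows up to 3 reads, which is 1.91 to 2.73 normalised counts in the muscle columns and 3.05 to 3.97 in the T-cell columns, and this covers counting error alone.

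In muscle most starts of the 42 genes held little signal. Their median was 1.82, 1.68 and 4.14 normalised counts at 2, 20 and 28 months, against 0.910, 0.842 and 3.82 over 11905 genes tested with a start bin. At 2 months, 7 of the 42 (16.7%) had 20 or more, against 9.19% of all genes. At 28 months 28 of the 42 were above their 2-month value (66.7%), against 73.8% of all genes. The bins of the 42 genes held a median of 22 CpG, against 34 over all genes. The highest at 2 and 20 months were Kcng2 (66.4 at 2 months, 58.1 at 20 months and 31.2 at 28 months), Kcne1l (62.8, 46.3 and 24.2), Kcnu1 (51.9, 48.8 and 32.5) and Kcnq1ot1 (43.7, 46.3 and 22.3). In these bins the value was lowest at 28 months, when Kcnj12 (33.1) was the highest of the 42. Kcnn4 had 31.8, 27.8 and 19.8 in muscle and 2.03, 0 and 0 in T cells.

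Of the genes that rose at 28 months, Kcnma1 had no read in its start bin in muscle at any age, although the bin holds 65 CpG. Kcnn3 had 0, 1.68 and 3.82 and Kcnk5 1.82, 1.68 and 3.19 at 2, 20 and 28 months. Kcne1l rose in RNA while its start bin went from 62.8 to 24.2. Other starts with 20 or more at 2 months were also lower at 28 months. Among them Kcng2 stood higher in RNA at 28 months and Kcnq1ot1, Kcnu1, Kcnn4 and Kcne4 lower, none called in the fit of all 9 libraries. Over all genes tested, 1094 starts held 20 or more at 2 months and 739 at 28 months. Kcnj12, called lower in RNA only with the replicates 3 fitted as a term or in a block, had 8.19, 14.3 and 33.1. These pairs of values are set side by side and were not tested.

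In T cells the median of the 42 starts was 3.55, 5.48 and 13.9 at 2, 20 and 28 months, against 1.02, 1.22 and 1.32 over all genes tested. The median log2 difference between 28 and 2 months was 0.90 for the 42 genes and 28 of them were above 0 (66.7%), against 40.2% of all genes. This median depended on the scaling and was 0.58 when the columns were set to 1 common sum. The 53 genes under the level in muscle had a median of 4.06, 9.73 and 17.2. Kcnk2 went from 14.2 to 37.7 and 64.8, Kcna1 from 1.02 to 7.30 and 44.9, and Kcnma1 from 0 to 19.5 and 25.1.

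**Figure D4:**
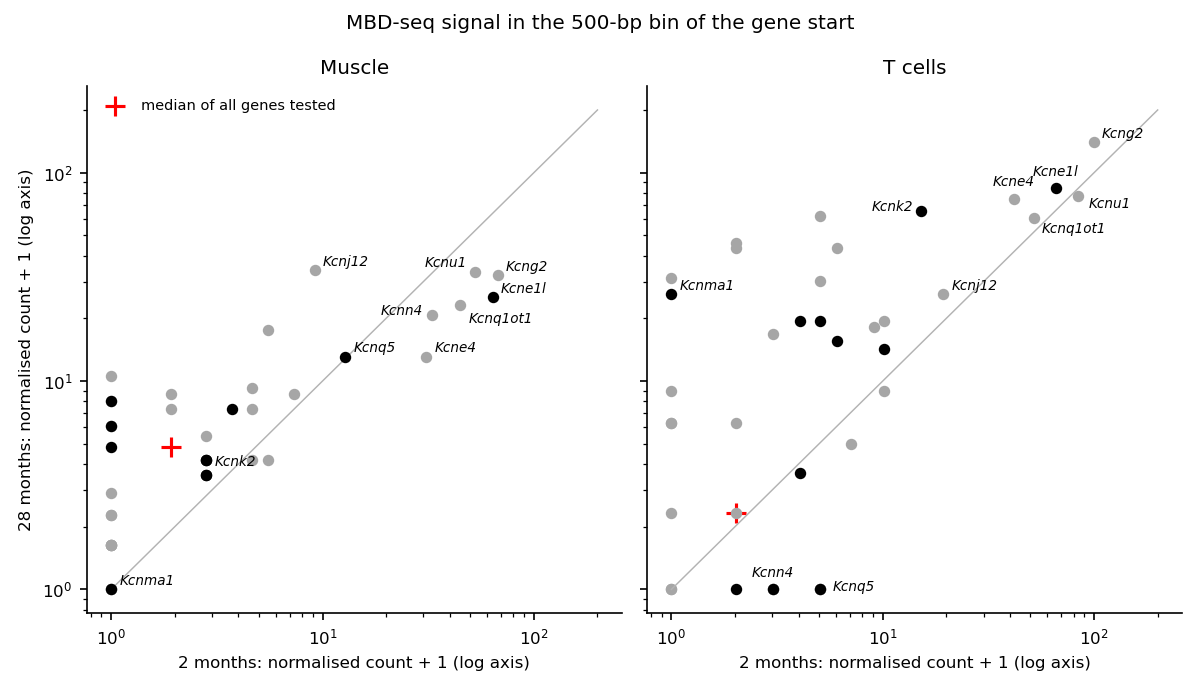
MBD-seq normalised count plus 1 in the start bin at 2 months (horizontal) and 28 months (vertical), both on log axes, for 39 potassium channel genes in muscle and in T cells. Black points are the 11 genes called in muscle RNA, the red cross is the median of all genes tested, and the line marks equal values. The muscle starts drawn with 20 or more normalised counts at 2 months lie under the line. They were picked by that value, which by itself favours a lower value in another pool. Kcnj12, with 8.19 at 2 months and 33.1 at 28 months in muscle, and many T-cell starts lie above it.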

How the data were processed

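RNA-seq values are reads per gene of the UCSC refSeq track, trimmed with Trim Galore, aligned to mm10 and counted with htseq-count, which the authors divided by 1 DESeq2 size factor per library (unit: signal, as deposited). The aligner is Hisat2 in the methods and TopHat in the submitters' processing notes. All nonzero values (100%) were whole multiples of 1 step per library within 0.01 reads, so reads were recovered. The 5 rows without a gene (37.9% to 47.7% of a library) were left out. MBD-seq values are reads in 500-bp bins, aligned with Bowtie2 and divided by a size factor by the authors (signal, deposited). The muscle columns do not name the capture round, and a repeat capture is not analysed here.

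Groups were the 3 ages of the labels. limma-trend (limma 3.58.1, R 4.3.3) was fitted to log2(value + 1) of all 9 libraries with age as the only term, on the 13178 genes with a mean of 10 or more. p-values were adjusted by Benjamini-Hochberg over all of them and called under 0.05. p-values measure the spread between 3 mice per age. The script was tested on simulated data. Alternatives were other pseudocounts (0.1, 5), no filter or a mean of 50, rescaling, quantile normalization, a replicate block, the 6 libraries compared, each library left out, and edgeR 4.0.16 and DESeq2 1.42.0 on recovered reads. The fits without, or with a term for, the libraries numbered 3, and the T-cell promoter settings, were chosen after seeing the data.

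Genes were described with every library's value if called in any comparison or among the 5 highest per kb, and otherwise by level, up to 4 per class. Lengths, starts, exons and sequences are from RefSeq (GRCm38.p6, matching mm10). The members, class lists, partner list and marker lists were chosen with earlier results of these data known. Some genes of these lists are counted in totals but not reported here by name, nor drawn. Python 3.11.15 was used for tables and figures.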

Additional observations from a re-analysis of the deposited data

How the results depend on the processing

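Over up to 21 alternatives, no called gene changed direction in the comparison in which it was called. Of 5 potassium channel genes called at 20 against 2 months, 2 were called after rescaling each library to the same sum, and 2 to 7 when a library was left out. Of 12 called at 28 against 2 months, 7 were called after rescaling, 4 without the libraries numbered 3, and 4 to 12 when a library was left out. Against 0 called at 28 against 20 months, 1 (Kcnk5) was called with a replicate block, 2 by DESeq2 and 4 by the fold rule, and 0 when any library was left out. The libraries kept for an age with 2 mice were assumed to vary like the others. The cause of these differences was not tested.

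No source used here says that a replicate number marks mice kept or processed together, and the numbers were not taken as pairs, although replicates 3 deviated together across the ages. Deviations from the group means correlated at -0.009 to 0.069 among replicates 1, -0.04 to 0.10 among replicates 2 and 0.109 to 0.161 among replicates 3. With the replicate block, 7 genes were called at 20 against 2 months, 14 at 28 against 2 months and 1 at 28 against 20 months, where limma gave Kcnk5 an adjusted p of 0.0393. The genes added by the block included Kcna7 at 20 against 2 months and Kcnj12 and Kcnh2 at 28 against 2 months (adjusted p of 0.0196, 0.0203 and 0.0478). A term for replicates 3 gave 7, 15 and 0. Over all genes, 2181, 1814 and 50 were called in the 3 comparisons, against 586, 554 and 24 after rescaling, 1099, 712 and 11 without the libraries numbered 3, 3000, 2529 and 138 with the replicate block, 2560, 2125 and 228 by DESeq2, 681, 677 and 172 by the fold rule, and 1081 to 2231, 963 to 1846 and 14 to 88 when a library was left out. With the 6 libraries compared, 76 genes were called at 28 against 20 months.

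The median log2 difference of the members' start bins between 28 and 2 months, 0.62 in muscle against 0.92 over all genes tested, was 0.75 with a pseudocount of 0.25, 0.02 over the bins within 1 kb and 1.05 after rescaling. In T cells it was 0.90, and 0.93, 0.87 and 0.58 under the same settings, against 0, 0.25 and 0 over all genes tested.

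Depth limits the low genes. With 1 read worth up to 2.23 normalised counts, genes with a mean near 10 rest on few reads, and a miss of the threshold does not show that their levels were equal.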

Other observations

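Some potassium channel genes lie next to each other, and their levels can be set beside the map (GRCm38). On chromosome 6, Kcna5, Kcna1 and Kcna6 follow each other with gaps of 101 and 62.5 kb. Their mean levels per kb at 2, 20 and 28 months were 117, 152 and 163 for Kcna5, 37.4, 32.2 and 47.4 for Kcna1 and 4.01, 6.37 and 15.1 for Kcna6, and Kcna6 was called at 28 against 2 months. On chromosome 3, Kcna3, Kcna2, Kcna10 and Kcnc4 lie with gaps of 63.4, 68.1 and 243 kb. Kcna3 and Kcna10 had means of 1.04 and 0.463 normalised counts, Kcna2 averaged 20.4 per kb and Kcnc4 1760. On chromosome 7, Kcnj11 and Kcnc1, among the 6 highest genes per kb, are 296 kb apart, and Kcnj14, 272 kb from Kcnj11 on its other side, had a mean of 1.94 normalised counts. On chromosome 11, Kcnj16 and Kcnj2 are 38.2 kb apart and had means of 0.256 and 4010 normalised counts.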
